A study of Mus musculus with 4 samples.

Results

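Venous endothelium was defined here by a gate on single barcodes, and 1888 of the 68675 barcodes that passed the quality filters were members. A barcode passed the filters with at least 500 genes, at least 1000 UMIs (unique molecular identifiers, each standing for 1 captured RNA molecule) and at most 10% of its UMIs from mitochondrial genes. A member then had at least 1 UMI of Cdh5, at least 1 of Slc6a2 and at least 2 of Vwf, had no UMI of Prox1, Gja5 or Ptprc, and had UMIs of fewer than 2 of Ednrb, Apln and Fibin. These 9 genes chose the members and are not results. BPTES replicates 1 and 2 held 466 and 478 members, and DMSO replicates 1 and 2 held 378 and 566. Membership was read from measured RNA, so every statement on what the class expresses is a description of the barcodes that the gate selected.

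The study profiled lungs of male C57BL/6 mice by droplet single-cell RNA sequencing (Chromium GEM-X 3' v4 chemistry). Mice of the BPTES group were 19 months old when dosing began and received BPTES, a small-molecule inhibitor, for 1 month. Mice of the DMSO group had the same sex, strain, age and duration and received DMSO, the vehicle, alone; no young or untouched lung was compared here. Each group had 2 libraries, each mixed from 20000 CD45-negative and 9000 CD45-positive sorted cells, and how many mice entered a library is not given in the sources used here, so the p-values measure the spread between these libraries. The sort fixed the proportion of leukocytes and leaves the endothelium in the CD45-negative portion.

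Veins return oxygenated blood from the alveolar capillaries to the left atrium. Venous endothelial cells hold their identity through the nuclear receptor COUP-TFII (Nr2f2) and the receptor EphB4, while Notch signalling and ephrin-B2 mark arteries. In many tissues, post-capillary venules are also vessels where leukocytes leave the blood. Weibel-Palade bodies, storage granules of von Willebrand factor, bring P-selectin (Selp) to the surface within minutes of stimulation. E-selectin, ICAM-1 and VCAM-1 follow after cytokine exposure. In the lung, the noradrenaline transporter encoded by Slc6a2 is a known mark of venous endothelium.

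The libraries held between 260346570 and 342107092 UMIs, and the median kept barcode had between 14284 and 16184. Between 65 and 104 kept barcode sequences were shared by each pair of libraries, and no member barcode was. Of the members, 9 to 17 per library had exactly 2 Vwf UMIs and 45 to 88 had exactly 1 Slc6a2 UMI, while 7 to 11 barcodes per library had Slc6a2 but only 1 Vwf UMI and stayed outside. Members were a tight selection: between 1423 and 2669 endothelial barcodes per library had at least 2 Vwf UMIs and none of Slc6a2. Class contrasts below set the members against a capillary gate of 14123 barcodes, chosen by at least 2 UMIs of Gpihbp1 and no Slc6a2, and an arterial gate of 1245 barcodes, chosen by at least 2 UMIs of Gja5.

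Venous markers were more widespread in the members than in capillary barcodes, while general capillary RNA was also abundant in them. After every barcode was thinned at random to 5000 UMIs, Prss23, a secreted serine protease, had a UMI in 90.6% to 94.1% of members per library, against 20.1% to 33.6% of capillary barcodes. Amigo2, an adhesion molecule, was detected in 61.4% to 69.5% of members and in 4.78% to 6.32% of capillary barcodes, and Car8, a carbonic anhydrase relative, in 44.1% to 56.9% and 0.975% to 1.82%. Nr2f2 was detected in 44.1% to 51.6% of members and 5.61% to 6.18% of capillary barcodes, and was more widespread still in a lymphatic gate chosen by Prox1 (85.9% to 90.0%). Of the 6 venous markers that had no part in the gate, Ephb4 separated the classes least, with 64.9% to 71.0% of members and 56.3% to 59.0% of capillary barcodes. The 6 general capillary markers summed to 9004 to 9977 CPM (counts scaled to a common library total) in members, against 10669 to 11213 CPM in the capillary gate, which 1 of them, Gpihbp1, had chosen, and the 8 venous markers, gate genes included, to 6543 to 8049 CPM. Markers of pulmonary-vein cardiac muscle that define that tissue (Myh6, Myl7, Tnnt2) stood at no more than 0.139 CPM, while Myl4, a further one, reached 18.7 to 23.7 CPM. The 6 markers of this muscle summed to 19.0 to 24.7 CPM in members, and were not confined to them. Their sums were 16.8 to 18.1 CPM in the capillary gate and 13.2 to 14.1 CPM in the arterial gate. Of the lymphatic markers, Mmrn1 and Reln stood at no more than 0.732 CPM, and Lyve1, singled out after its values were seen, reached 1426 to 1552 CPM in members against 666 to 778 in the capillary gate.

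**Figure D1:**
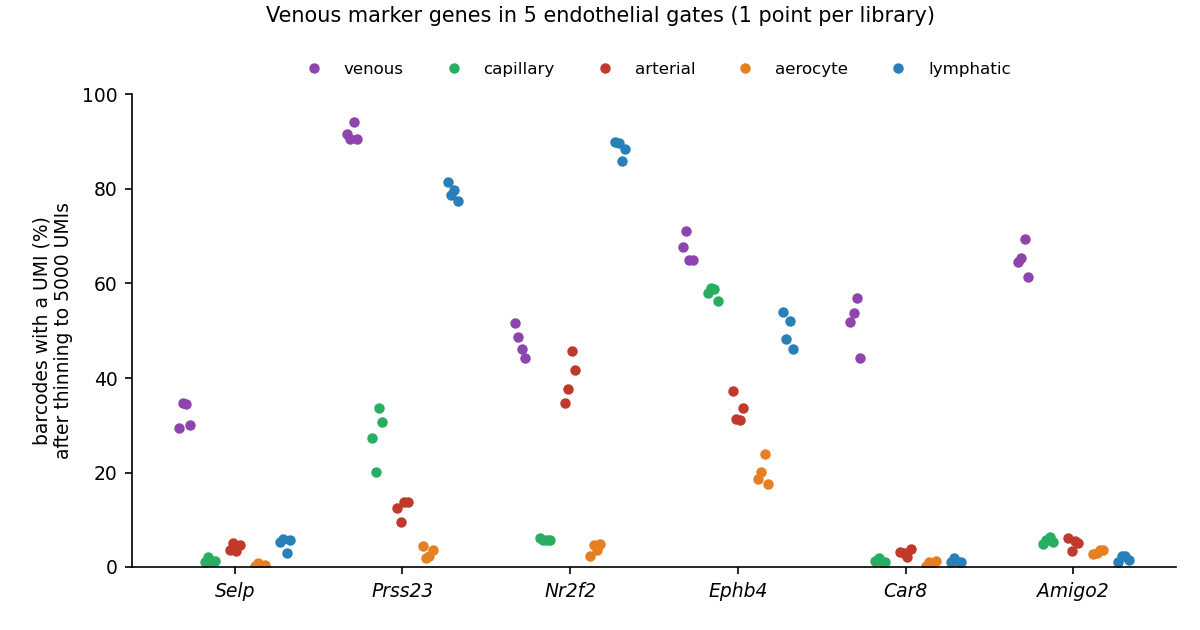
Percent of barcodes with at least 1 UMI (vertical axis) of 6 venous marker genes in 5 endothelial gates after thinning to 5000 UMIs, 1 point per library. Venous points for Prss23 lie between 90.6% and 94.1%, and those for Selp between 29.4% and 34.6%, above every capillary, arterial, aerocyte and lymphatic point for that gene.

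RNA of other lineages was present in the member sums and differed between libraries. The 6 markers of type 2 alveolar epithelium together reached 3806 and 286 CPM in the BPTES libraries and 97.7 and 1473 CPM in the DMSO libraries. After leaving out the 13 to 22 members per library that held at least 4 of the 6 markers of 1 other lineage, the sums were 338, 244, 99.2 and 194 CPM. Fibroblast markers moved from 60.7 to 312 CPM down to 14.2 to 31.5 CPM, and myeloid markers from 205 to 875 CPM down to 203 to 256 CPM. Results below are from all members, and the values without these barcodes are given where they move a printed fold difference between classes by over 1.5 times.

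Compared with capillary endothelium, the members carried a large set of venous genes. Of 14822 genes tested in sums per library, 632 (4.26%) were higher and 401 (2.71%) lower in the members at an adjusted p under 0.05 with a log2 difference of at least 1 (edgeR quasi-likelihood test, library as block, Benjamini-Hochberg adjustment). On the list of 20 genes known to be richer in veins, 14 of 19 tested were higher and 2 lower; markers on that list were picked with these data known, so its count describes the class and is not independent evidence. Selp is P-selectin, the granule protein that makes leukocytes roll. Its level was 578 and 994 CPM in members of the BPTES libraries and 812 and 625 CPM in those of the DMSO libraries, against 5.19, 13.5, 11.5 and 7.86 CPM in the capillary gate of the same libraries. The lowest member value lay far above the highest capillary value, at a log2 difference of 6.35 (SE 0.108). Prss23 stood at 1513, 1339, 1876 and 1432 CPM in members and at 82.6, 63.7, 107 and 100.4 CPM in the capillary gate in the same library order, a log2 difference of 4.14 (SE 0.0865). Nr2f2 had 200 ± 17.3 CPM (SD, n = 4 libraries) in members and 20.2 ± 1.31 CPM in the capillary gate, a log2 difference of 3.30 (3.96 without the 4-marker barcodes).

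Rarb, the retinoic acid receptor beta, stood at 367 and 329 CPM in the BPTES and 498 and 450 CPM in the DMSO members, against 11.6, 9.61, 17.2 and 15.6 CPM in the capillary gate. Members and capillary barcodes did not overlap in Rarb, at a log2 difference of 4.94 (SE 0.0561). Pla2g4a, the cytosolic phospholipase that frees arachidonic acid, was higher by 5.08 log2, and Lpcat2, which makes platelet-activating factor, by 5.88. Ptgs2, cyclooxygenase 2, was higher by 4.63 log2 (6.45 without the 4-marker barcodes), Ptgs1, cyclooxygenase 1, by 1.55 log2, and Ptgis, the prostacyclin synthase, by 2.80 log2 (166 ± 23.6 against 23.9 ± 4.8 CPM). Cytl1, a small secreted protein, had 200 ± 56.2 CPM in members against 3.45 ± 0.335 CPM, Foxc1, a forkhead transcription factor of vessel development, 57.6 ± 10.4 against 1.48 ± 0.41 CPM, and Cpe, the peptide-processing carboxypeptidase E, 84.5 ± 21.6 against 1.1 ± 0.399 CPM. Bst1, a surface enzyme related to CD38, had 142 ± 6.86 CPM in members and 4.23 ± 0.685 CPM in the capillary gate. Tmem45a and Fgl2 completed the 12 named genes of at least 50 CPM, at 5.60 (6.55 without the 4-marker barcodes) and 4.94 log2.

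Genes of leukocyte capture were divided. Of 19 tested, 6 (31.6%) were higher in members, 1 (5.26%) was lower and 12 were neither by this rule, against 4.26% higher and 2.71% lower of all genes. The median log2 difference was 0.06 against -0.01 over all genes. Vcam1, the ligand of the leukocyte integrin VLA-4, stood at 290 and 414 CPM (BPTES) and 529 and 458 CPM (DMSO) in members and at 13.9 to 22.7 CPM in the capillary gate. The members of every library exceeded the capillary gate, with a log2 difference of 4.46 (SE 0.106). Icam1, the ligand of the beta-2 integrins, was higher by 1.62 log2 (486 ± 61.5 against 158 ± 16.5 CPM). Sele, E-selectin, was higher by 3.45 log2 with a wide spread, from 22.1 to 81.4 CPM in members and from 0.464 to 8.26 CPM in the capillary gate. Cd34, a sialomucin that can carry selectin ligands, was the one gene of the list that was lower by this rule, with a log2 difference of -1.18. Cx3cl1 (-0.50 log2), Mcam (-0.39), F11r (-0.33), Pecam1 (-0.31), Icam2 (-0.23), Esam (-0.20) and Podxl (-0.17) were also lower in every library. Their adjusted p was under 0.05 in edgeR, at differences under 1 log2.

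Among genes of clotting, fibrinolysis and granule traffic, 5 of 20 (25%) were higher and 2 (10%) lower, against 4.26% and 2.71% of all genes. F5, coagulation factor V, was not on that list but ranked among the widest differences, with 67.6, 112, 135 and 112 CPM in members and 1.19 to 2.18 CPM in the capillary gate. The log2 difference of F5 was 5.98 (SE 0.112). F8, the factor VIII that von Willebrand factor carries in plasma, was higher by 1.37 log2 at low levels (18.5 ± 5.59 against 7.10 ± 1.96 CPM). Rab27a, a small GTPase of Weibel-Palade body release, was higher by 1.38 log2 (136 ± 8.13 against 52.2 ± 3.75 CPM), and Procr, the endothelial protein C receptor, by 2.95 log2 at only 9.85 ± 1.12 CPM. Thrombomodulin (Thbd), the cofactor of protein C activation, was higher in members in 4 of 4 libraries without overlap, at 1070 ± 64.0 against 740 ± 33.3 CPM (log2 difference 0.53, SE 0.0539, adjusted p = 9.89e-05 in edgeR), a difference under the size of 1 log2 that the counts require. The plasminogen activator Plat went the other way, at 17.7 ± 4.47 CPM in members and 96.2 ± 7.91 CPM in the capillary gate (log2 difference -2.43, SE 0.147), while Plau was higher by 2.16 log2 at only 3.75 ± 0.861 CPM in members.

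By the same rule 4.26% of all genes were higher and 2.71% lower, the shares to set beside each count in this paragraph. Of 20 VEGF, angiopoietin and BMP genes 1 (5%) was higher, near that share, and 2 (10%) lower, with a median of -0.07 log2. On the venous list, Vegfc, the lymphatic growth factor, had 823 ± 76.2 CPM in members and 126 ± 36.9 CPM in the capillary gate, and its co-receptor Nrp2 had 295 ± 17.4 and 45.2 ± 9.45 CPM. Ackr3, a scavenging receptor of CXCL12, was higher by 1.97 log2. Of 22 matrix genes 6 were higher, among them Bgn (2.76 log2, and 3.98 without the 4-marker barcodes), a small proteoglycan, and Eln (1.65 log2), elastin, and 3 were lower, among them Col4a1 (-1.05 log2) and Sparc (-1.71 log2). Of 21 glutamine genes 3 were higher: Ctps (2.37 log2), which makes CTP from glutamine, Oat (2.3 log2, and 3.11 without them), the ornithine aminotransferase, and Cad (1.17 log2), which starts pyrimidine synthesis. None of the 17 antigen presentation genes passed the rule in either direction.

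Among genes of at least 50 CPM in the capillary gate, the lowest relative levels in members were those of Zfp641, a zinc-finger protein (13.1 ± 4.33 against 104 ± 21.6 CPM), Sema3g, Dpp4, Gprin3, Pcsk5, Prss12 and Glis3, followed by Kit. Kit, the stem cell factor receptor of general capillary cells, stood at 70.1, 60.9, 60.4 and 66.3 CPM in members and at 419, 423, 453 and 400.2 CPM in the capillary gate. The values did not overlap, and the log2 difference was -2.71 (SE 0.0618). Of 19 arterial and Notch genes 10 (52.6%) were lower and 1 (5.26%) higher, against 2.71% and 4.26% of all genes. Efnb2, ephrin-B2, had 105 ± 15.7 CPM in members against 585 ± 50.9 CPM, and the Notch ligand Dll4 was lower with a log2 difference of -2.33. Sema3g, a semaphorin of arterial endothelium, had 39.3 ± 4.48 against 317 ± 11.6 CPM, and the peptidase Dpp4 25.9 ± 4.49 against 201 ± 28.8 CPM. Fbln5, an elastic fibre protein listed among the arterial genes, was the one that was higher in members (4.13 log2).

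**Figure D2:**
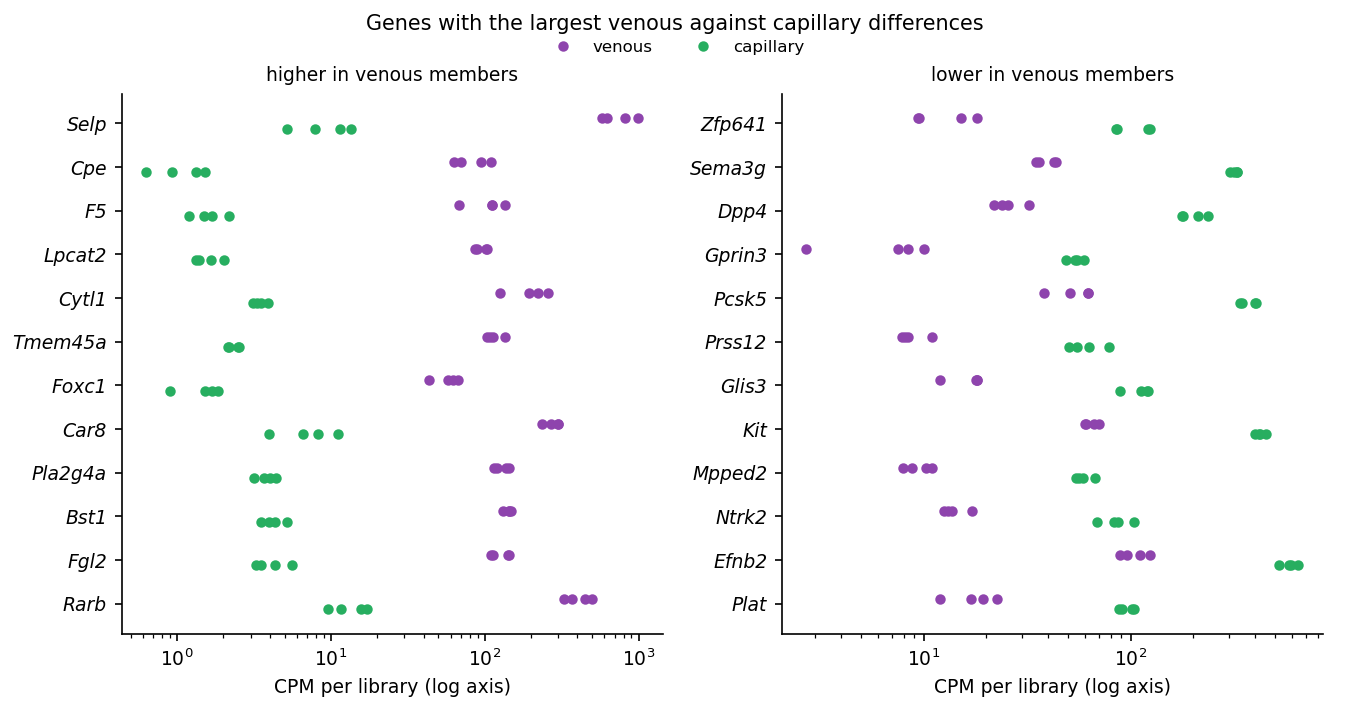
CPM per library on a log axis of the 12 genes with the widest difference in each direction among called genes of at least 50 CPM in the higher class, in members (purple) and in the capillary gate (green), 1 point per library. The classes do not overlap for any of the 24 genes; Selp lies between 578 and 994 CPM in members and Kit between 60.4 and 70.1 CPM.

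Against the arterial gate, 884 of 13032 genes (6.78%) were higher in members and 1667 (12.8%) lower by the same rule. The arterial gate also held fibroblast RNA. Pdgfra averaged 756 CPM there, and its 6 fibroblast markers summed to 1425 to 1713 CPM, against 1047.5 to 1297 CPM for its 6 arterial markers. Genes lower in members are therefore not named, and the part of fibroblast RNA in the counts was not tested. The counts were 518 and 1099 after barcodes with at least 4 markers of 1 other lineage were left out. They were 341 and 270 after the broader removal of barcodes with 2. The venous side of the contrast repeated several of the genes above. Nr2f2 was not among them, at 236.55 CPM on average in the arterial gate and 197.5 CPM in members, values that were scaled differently. It also averaged 165 CPM outside the endothelium, and the part of RNA from other cells in its arterial value was not tested. Rarb had 411 ± 78.9 CPM in members and 3.61 ± 1.20 CPM in the arterial gate (6.84 log2, and 7.51 without the 4-marker barcodes). Bst1 had 142 ± 7.36 and 1.68 ± 0.612 CPM, and Prss23 was higher by 5.74 log2 (5.42 without the 4-marker barcodes). Rgs5, a regulator of G-protein signalling also known from pericytes, had 124 ± 4.40 CPM in members and 1.43 ± 0.964 CPM in the arterial gate. Selp was higher by 4.56 log2 (3.77 without the 4-marker barcodes) and Vegfc by 4.48 log2 (4.43).

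Selp was unevenly spread among the members. In BPTES replicates 1 and 2, 63.1% and 59.0% of members had no Selp UMI, and in DMSO replicates 1 and 2 the shares were 59.0% and 63.3%. The 10% of members richest in Selp held 85.9%, 79.5%, 76.0% and 86.5% of all Selp UMIs in the same order, and single members reached 391, 427, 418 and 221 UMIs. After thinning, 29.4% and 34.6% of BPTES members and 34.5% and 30.1% of DMSO members had a Selp UMI, against 1.07% to 2.18% of capillary barcodes at the same depth. The members were therefore split by Selp after thinning to none, 1 to 4, and 5 or more UMIs, with the 4-marker barcodes left out; the split uses a measured value, so what follows is a description of 4 libraries with no test. Selp-rich members, with 5 or more UMIs, numbered 49, 79, 65 and 64, against 291, 278, 222 and 353 members with none.

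The Selp-rich members differed from the rest in clotting, inflammatory and some adhesion genes. Of 7009 genes measured, 12.1% were higher and 19.8% lower in the Selp-rich members of all 4 libraries. A gene counted as measured at 20 CPM. Genes that reached that level in the Selp-rich and not in the Selp-negative members included F5, Sele, Hdc, Cxcl10, Ackr1 and Procr. Kit and Aplnr did the reverse. Where such genes are on a list, they enter its counts with their direction set by the filter. F5 averaged 609 ± 89.7 CPM in Selp-rich members, 44.7 ± 20.8 CPM in those with 1 to 4 UMIs, and 2.65 ± 1.33 CPM in those with none. Sele averaged 197 ± 113 CPM in the Selp-rich and 2.73 ± 2.54 CPM in the Selp-negative members. Vcam1 (998 against 236 CPM), Icam1 (862 against 350 CPM), Ptgs2 (387 against 55.4 CPM), Pcdh7, a protocadherin (417 against 69.0 CPM), and Hdc, which makes histamine (70.3 against 16.0 CPM), were each higher in the Selp-rich members. Ackr1, the chemokine-binding receptor that marks post-capillary venules, averaged 30.3 CPM in the Selp-rich and 4.31 CPM in the Selp-negative members, and Procr 23.6 and 4.47 CPM. Of 16 leukocyte adhesion genes 7 were higher and 5 lower in every library; the lower were Icam2, Pecam1, Esam, Podxl and Cd47.

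By list, all 10 measured inflammatory genes were higher in the Selp-rich members of every library, as were 10 of 14 clotting and granule genes. So were 9 of 17 matrix genes, among them Hspg2, perlecan, and Mgp, the matrix Gla protein (334 against 91.9 CPM). Over all members Hspg2 had only 5.62 to 11.4 CPM per library, under the level of 20 CPM. In the other direction lay 12 of 17 antigen presentation genes, 10 of 19 VEGF, angiopoietin and BMP genes, and 9 of 16 arterial and Notch genes. In these 3 lists 0, 3 and 3 genes were higher in every library. Of 17 tone and amine genes 9 were lower and 3 higher, and of 22 immediate early and heat shock genes 10 were higher and 2 lower. The shares to set beside these counts are 12.1% higher and 19.8% lower of all 7009 genes. The 6 general capillary markers were divided, with 3 lower and 2 higher in the Selp-rich members of every library. Kit averaged 79.8 CPM in Selp-negative and 12.7 CPM in Selp-rich members and Sema3c 3124 and 1490 CPM, while Plvap, a diaphragm protein of endothelial openings, had 1200 and 1426 CPM and Ptprb, the VE-PTP phosphatase, 3597 and 3966 CPM. Gpihbp1, the third that was lower, had chosen the capillary gate. Of 17 measured venous list genes, 11 were higher and 3 lower in the Selp-rich members of every library, with a median log2 difference of 0.90. Among the higher were Cpe (202 against 46.1 CPM), Car8 (432 against 224 CPM), Nr2f2 (279 against 150 CPM) and Prss23 (1888 against 1366 CPM), and the lower were Vegfc (727 against 868 CPM), Hdac9, a histone deacetylase (370 against 495 CPM), and Aplnr, the apelin receptor (3.80 against 28.1 CPM).

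**Figure D3:**
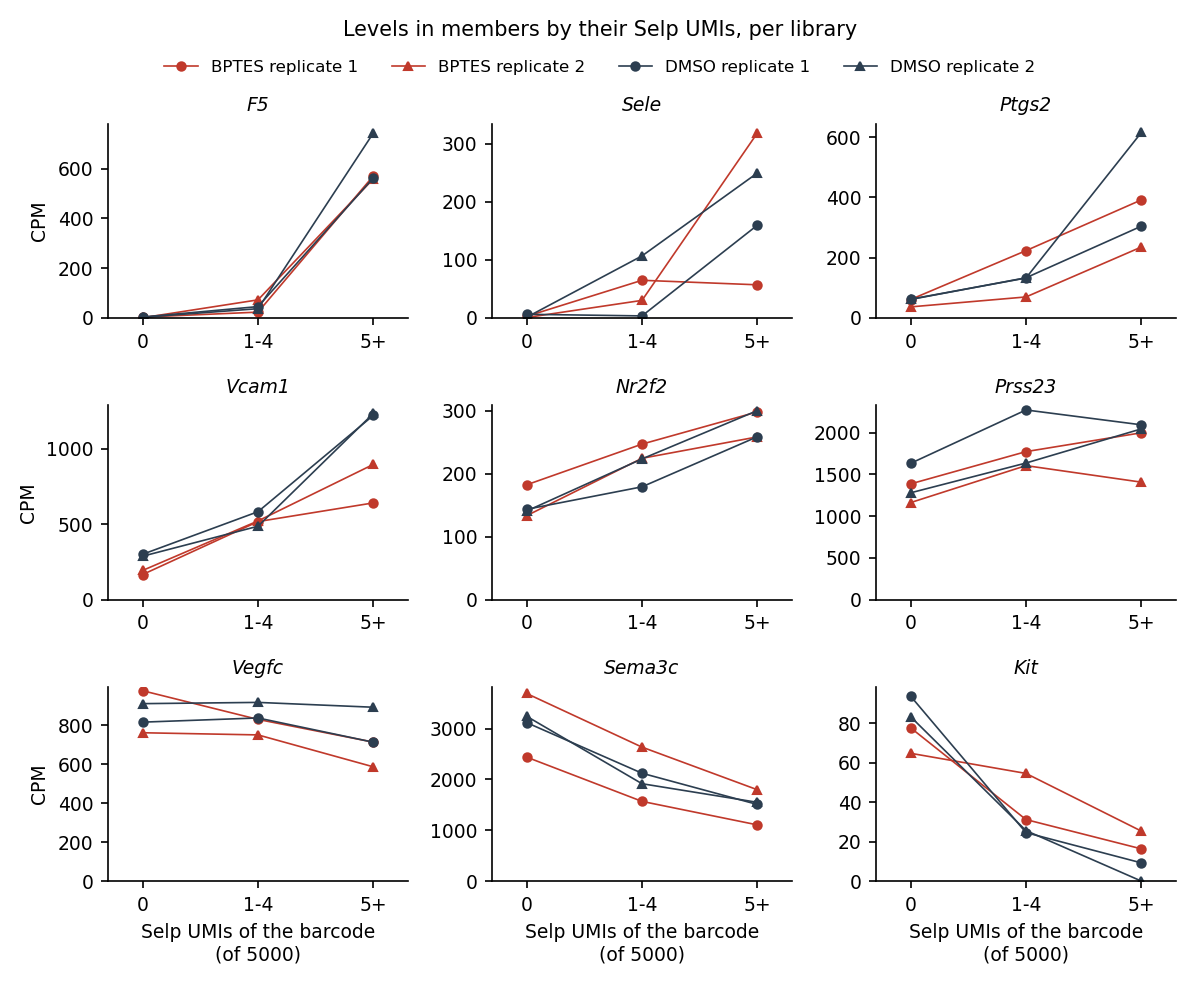
CPM (vertical axis, from 0) of 9 genes in members grouped by their Selp UMIs of 5000 (horizontal axis: 0, 1 to 4, 5 or more), 1 line per library. F5 goes from 2.65 to 609 CPM on average and Kit goes from 79.8 to 12.7 CPM, while Prss23 stays above 1000 CPM in every group.

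Members made up 7.31% (exact binomial 95% interval 6.69% to 7.98%) and 8.38% (7.68% to 9.13%) of endothelial barcodes in the BPTES libraries, and 7.14% (6.46% to 7.87%) and 7.25% (6.68% to 7.85%) in the DMSO libraries. BPTES replicate 2 was higher than the other 3 libraries, whose intervals overlapped widely, though its interval also overlapped each of theirs. Both BPTES shares lay above both DMSO shares. The difference of means was 0.656 points (7.85% ± 0.757 against 7.19% ± 0.0779, SD, n = 2 libraries each), with p = 0.333 in a two-sided exact permutation test, the smallest p that 2 against 2 libraries allow, so this test could not pass at 0.05 whatever the difference. With every barcode thinned to 5000 UMIs before gating, the difference was 0.0917 points and the groups overlapped (6.62% and 7.88% against 7.41% and 6.90%). They also overlapped with Vwf of at least 3 and Slc6a2 of at least 2, and with all Ptprc-negative barcodes as denominator. The same held without barcodes with 2 or 4 markers of another lineage. They stayed apart with at most 5% mitochondrial UMIs and with Vwf of at least 1.

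No gene passed the test between BPTES and DMSO members. Of 12720 genes tested, 0 (0.0%) had an adjusted p under 0.05 in edgeR, and the smallest adjusted p was 0.335; 515 genes (4.05%) were higher and 675 (5.31%) lower at an unadjusted p under 0.05. DESeq2 on the same sums called 41 genes, 14 higher and 27 lower. The edgeR count also changed when 1 library was left out. Such a fit leaves 1 library in a group, which is then assumed to vary like the other group. Why the count changed was not tested. In bulk sums of this kind, fewer cells of a subtype and less RNA per cell cannot be told apart, and the Selp-rich portion differed between libraries (11.2% and 18.4% of thinned BPTES members, 18.2% and 12.7% of DMSO members).

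Selp, Prss23 and Nr2f2 of the venous list overlapped between treatments. Selp stood at 570 and 982 CPM in BPTES and 803 and 620 CPM in DMSO members, with overlapping groups (log2 fold change 0.12, SE 0.248, adjusted p = 0.895 in edgeR). Prss23 stood at 1490 and 1323 against 1856 and 1420 CPM, and Nr2f2 at 222 and 191 against 192 and 185 CPM. DMSO replicate 1 was the highest library for Prss23 and BPTES replicate 1 for Nr2f2, and the other 3 libraries lay close together in each. Ephb4 did not overlap, at 266 and 282 against 249 and 247 CPM (log2 fold change 0.15, unadjusted p = 0.16, adjusted p = 0.636, edgeR). Of 18 tested venous list genes, 2 were higher (11.1%) and 3 lower (16.7%) without overlap, against 21.1% and 21.4% of all genes. None reached an adjusted p under 0.05 and 1, Vcam1, was lower at an unadjusted p under 0.05, against 5.31% of all genes.

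Of 19 genes of glutamine use and transport tested, 11 were above and 8 below 0 in BPTES against DMSO members, with a median of 0.03 log2. At an unadjusted p under 0.05, 1 was higher and 1 lower, against 4.05% and 5.31% of all genes, and both were transporters at trace levels: Slc7a11, the cystine importer, at 2.75 and 4.8 against 1.27 and 1.37 CPM, and Slc38a1, a glutamine transporter, at 0.55 and 0.14 against 1.45 and 2.12 CPM. Outside the endothelium these transcripts averaged 126.5 and 94.3 CPM, and the part of RNA from other cells was not tested. The senescence gene Cdkn1a, the p21 inhibitor, stood at 312 and 343 against 391 and 351 CPM (log2 fold change -0.18, edgeR adjusted p = 0.612), and Cdkn2a had 1, 3, 0 and 2 UMIs in all members and was not testable.

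Interferon-induced genes stood on the lower side of 0 in BPTES members. Of the 33 tested, 29 (87.9%) had a negative log2 fold change and 4 a positive one, against 50.3% and 49.7% of all genes, and the median was -0.13 log2 against -0.0018. In 13 of the 33 (39.4%) both BPTES values lay below both DMSO values, against 21.4% of all genes. Like the other lists, this one was picked with earlier results of these data known, so its counts are a description and not independent evidence. Iigp1, an immunity-related GTPase induced by interferon-gamma, stood at 466 and 411 CPM in BPTES and 788 and 729 CPM in DMSO members. Both BPTES values lay well below both DMSO values, at a log2 fold change of -0.79 (SE 0.111, adjusted p = 0.335 in edgeR and 2.75e-07 in DESeq2). Irf1, the transcription factor that drives many such genes, stood at 446 and 452 against 695 and 608 CPM, again with no overlap (log2 fold change -0.54, edgeR adjusted p = 0.383, DESeq2 0.00363).

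The 10 of 33 interferon genes with an unadjusted p under 0.05 were all lower, against 5.31% of all genes, and were mostly targets of the interferon-gamma arm: the guanylate-binding proteins Gbp3, Gbp4 and Gbp5, the immunity-related GTPases Iigp1 and Irgm1, the chemokines Cxcl9 and Cxcl10, and Irf1, with Stat2 and Parp14. Gbp5 stood at 82.8 and 63.3 against 107 and 113 CPM, Irgm1 at 100.8 and 100.5 against 153 and 125 CPM, and Cxcl10, which draws T cells through CXCR3, at 17.1 and 7.62 against 29.0 and 32.7 CPM. In each of the 3 the BPTES values were the lower pair. Among classical type I interferon targets, Isg15 was at -0.05, Ifit1 at -0.15, Ifit2 at -0.04, Oasl2 at -0.13, Oas1a at -0.36, Mx1 at -0.23, Irf7 and Usp18 at -0.06, Ifit3 at 0.12 and Rsad2 at 0.31 log2, each with an unadjusted p above 0.05. Isg15 had 128 and 94.8 against 112 and 118 CPM, with BPTES replicate 1 the highest library and BPTES replicate 2 the lowest.

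Interferon-induced genes are read by STAT and IRF factors at short sites near the start of transcription, so the promoters of the genes that stood lower together were searched for the direct repeat that IRF factors recognise, GAAA, any 2 bases and GAAA again, on both strands (TTTC on the reverse), with overlapping matches counted. RefSeq promoters of build GRCm38.p6, from 250 bases before to 50 after the start, held it in 1131 of 32851 windows (3.44%). Of the 10 genes above, 7 matched a promoter entry and 5 of these held the motif. They came from a list of interferon-induced genes, where such sites can be present whatever the treatment. The share among the other genes of that list is not given here, so this count does not bear on the difference between BPTES and DMSO. The 3 shown, picked after their values were seen because they span 1 match on either strand and an overlapping pair, are printed 5′ to 3′ on the gene's strand with each match in capitals: Cxcl10 (chr5:92348840-92349139, minus strand), Gbp5 (chr3:142496684-142496983, plus strand) and Irgm1 (chr11:48871371-48871670, minus strand).
Cxcl10: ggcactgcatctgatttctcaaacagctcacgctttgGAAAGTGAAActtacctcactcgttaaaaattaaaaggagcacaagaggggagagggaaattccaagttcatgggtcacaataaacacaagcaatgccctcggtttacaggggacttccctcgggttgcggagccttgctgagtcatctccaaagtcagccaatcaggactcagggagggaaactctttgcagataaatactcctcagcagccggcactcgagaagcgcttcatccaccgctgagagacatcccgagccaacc
Gbp5: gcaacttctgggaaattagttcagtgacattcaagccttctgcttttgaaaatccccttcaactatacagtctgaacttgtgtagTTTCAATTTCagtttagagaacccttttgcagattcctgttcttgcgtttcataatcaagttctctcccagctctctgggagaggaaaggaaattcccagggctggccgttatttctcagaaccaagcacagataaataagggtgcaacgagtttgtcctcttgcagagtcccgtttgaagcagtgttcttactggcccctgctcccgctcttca
Irgm1: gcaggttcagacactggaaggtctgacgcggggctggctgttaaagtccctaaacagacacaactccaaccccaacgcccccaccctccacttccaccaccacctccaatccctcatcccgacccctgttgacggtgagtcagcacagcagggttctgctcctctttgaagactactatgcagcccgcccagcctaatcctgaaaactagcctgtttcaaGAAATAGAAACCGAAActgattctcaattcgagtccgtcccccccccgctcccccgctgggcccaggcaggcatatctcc
Cxcl10 had 1 match beginning at base 38 of its 300 and Gbp5 1 match beginning at base 86, on the reverse strand, while Irgm1 had 2 overlapping matches from base 221, close to the start. The matches describe these letters only, and no binding was measured here.

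Antigen presentation genes shared the direction. All 17 tested had a negative log2 fold change and in 13 (76.5%) the groups did not overlap, against 50.3% and 21.4% of all genes, with a median of -0.20 log2. This list too was picked with earlier results of these data known, and its genes are not independent of each other, so the counts are a description. Nlrc5, the activator of class I genes, stood at 70.2 and 74.8 CPM in BPTES and 92.8 and 88.6 CPM in DMSO members (log2 fold change -0.32, SE 0.0926, edgeR adjusted p = 0.452). The class I gene H2-Q4 had 111 and 113 against 146 and 140 CPM, the peptide transporter Tap1 60.3 and 47.4 against 73.0 and 71.8 CPM, and B2m, the class I light chain, 2545 and 2429 against 2781 and 3012 CPM. Both BPTES values were the lower pair in each. The class II genes Cd74 (716 and 596 against 864 and 800 CPM) and H2-Eb1 (225 and 222 against 288 and 258 CPM) followed the same order. Without the 4-marker barcodes, the log2 fold changes were -0.33 for H2-Q4, -0.32 for Nlrc5 and -0.21 for B2m, and -0.72 for Iigp1.

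**Figure D4:**
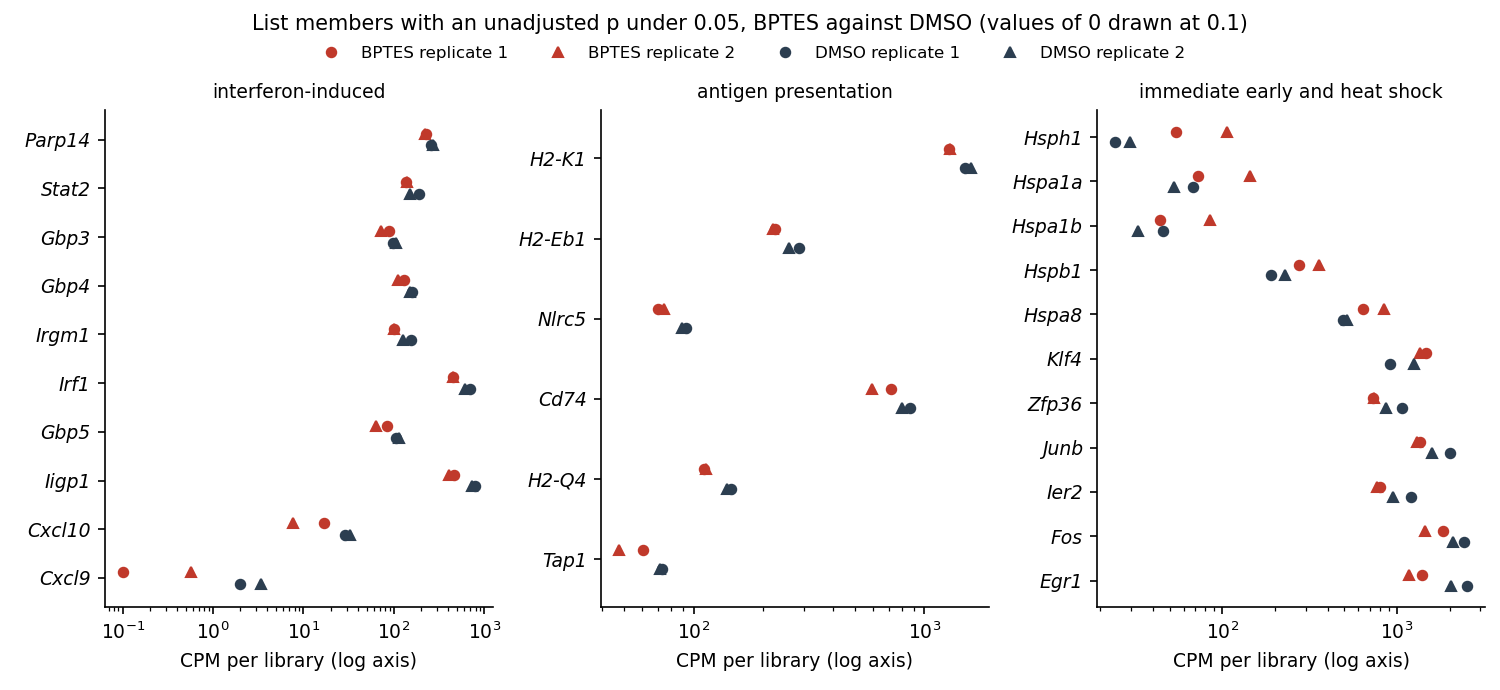
CPM per library (log axis) in members of the genes with an unadjusted p under 0.05 on the interferon, antigen presentation, and immediate early and heat shock lists; circles are replicate 1, triangles replicate 2, red BPTES and dark blue DMSO. Both BPTES points lie below both DMSO points for all 10 interferon and all 6 antigen presentation genes shown, with Cxcl9 in BPTES replicate 1, at 0 CPM, drawn at the left end of the log axis; the heat shock genes lie the other way, Hspa1b with overlapping groups.

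Immediate early and heat shock genes, which also respond to tissue digestion, pointed both ways. In 11 of 22 both BPTES values were below both DMSO values and in 6 of 22 above, against 21.4% and 21.1% of all genes. Egr1, a zinc-finger factor induced within minutes, stood at 1397 and 1178 CPM in BPTES and 2529 and 2028 CPM in DMSO members (log2 fold change -0.82, SE 0.145, adjusted p = 0.335 in edgeR and 2.34e-06 in DESeq2). Its relative Egr3 had 23.7 and 24.1 against 58.9 and 44.9 CPM, and Fos 1831 and 1449 against 2421 and 2092 CPM. Of the 6 higher without overlap, 4 were heat shock genes and the others were the Kruppel-like factors Klf4 (1466 and 1346 against 917 and 1248 CPM) and Klf6 (458 and 504 against 365 and 437 CPM). Hsph1, a co-chaperone of HSP70, had 54.3 and 106.9 against 24.3 and 29.7 CPM (log2 fold change 1.57, SE 0.302), and Hspa8, the constitutive HSP70, 639 and 846 against 494 and 515 CPM. BPTES replicate 2 was the highest library for Hsph1, Hspa1a, Hspb1 and Hspa8. How the time from lung to droplet differed between libraries is not given in the sources used here, and its part was not tested.

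NF-kB and acute-phase genes had 13 of 19 members below 0 (68.4%, against 50.3% of all genes), and 5 were lower and none higher at an unadjusted p under 0.05, against 5.31% and 4.05% of all genes. Nfkbiz, a co-activator of secondary NF-kB targets, stood at 451 and 502 CPM in BPTES and 747 and 615 CPM in DMSO members, with no overlap (log2 fold change -0.52, edgeR adjusted p = 0.427, DESeq2 0.0143). Tnfaip3, the A20 deubiquitinase, had 48.4 and 57.0 against 73.7 and 66.8 CPM, and Cxcl1, a neutrophil chemokine that averaged 104 CPM outside the endothelium, 8.67 and 5.36 against 21.0 and 21.7 CPM. Vcam1 stood at 285 and 409 against 524 and 455 CPM, both BPTES values below both DMSO values (log2 fold change -0.49, SE 0.175, unadjusted p = 0.0251, adjusted p = 0.497 in edgeR). Over the alternatives this Vcam1 value ran from -0.89 to -0.26 log2, the latter without BPTES replicate 1. Icam1 overlapped, at 409 and 489 against 558 and 467 CPM, and so did Sele, at 21.7 and 80.4 against 31.2 and 47.1 CPM. Atf3, a stress-induced factor counted with the ATF4 list, had 914 and 858 against 1182 and 1193 CPM, and of the 16 tested genes of that list 1 was higher and 3 lower at an unadjusted p under 0.05, against 4.05% and 5.31% of all genes.

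Of 18 arterial and Notch genes tested, 13 were above 0 (49.7% of all genes were) and 6 were higher without overlap (33.3%, against 21.1% of all genes), and none was lower without overlap. Hes1 had 310 and 356 CPM in BPTES and 237 and 231 CPM in DMSO members (log2 fold change 0.51, SE 0.106, adjusted p = 0.383 in edgeR and 0.0143 in DESeq2). Hey1 had 40.4 and 45.7 against 31.2 and 26.8 CPM, and Efnb2 122 and 110 against 88.2 and 95.5 CPM. These 3 were the arterial and Notch genes with an unadjusted p under 0.05, none was lower, and the median of 18 was 0.16 log2. Of the 19 VEGF, angiopoietin and BMP genes tested, 13 (68.4%) were below 0 with a median of -0.09 log2, and 4 (21.1%) were higher and 6 (31.6%) lower without overlap, against 50.3%, 21.1% and 21.4% of all genes. The BMP targets Id1 (398 and 463 against 257 and 354 CPM), Id3 (441 and 488 against 348 and 349 CPM) and Smad7 (293 and 406 against 262 and 235 CPM) were higher without overlap, while the ligand Bmp4 was lower (45.7 and 53.8 against 75.7 and 65.5 CPM). Other BMP targets of the list lay on both sides of 0, with Smad6 at 0.35 (252 and 483 against 292 and 284 CPM, overlapping), Id2 at -0.19 and Tmem100 at -0.12 log2. The receptors of that list, Kdr, Tek, Tie1, Eng and Acvrl1, had p-values above 0.05.

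**Figure D5:**
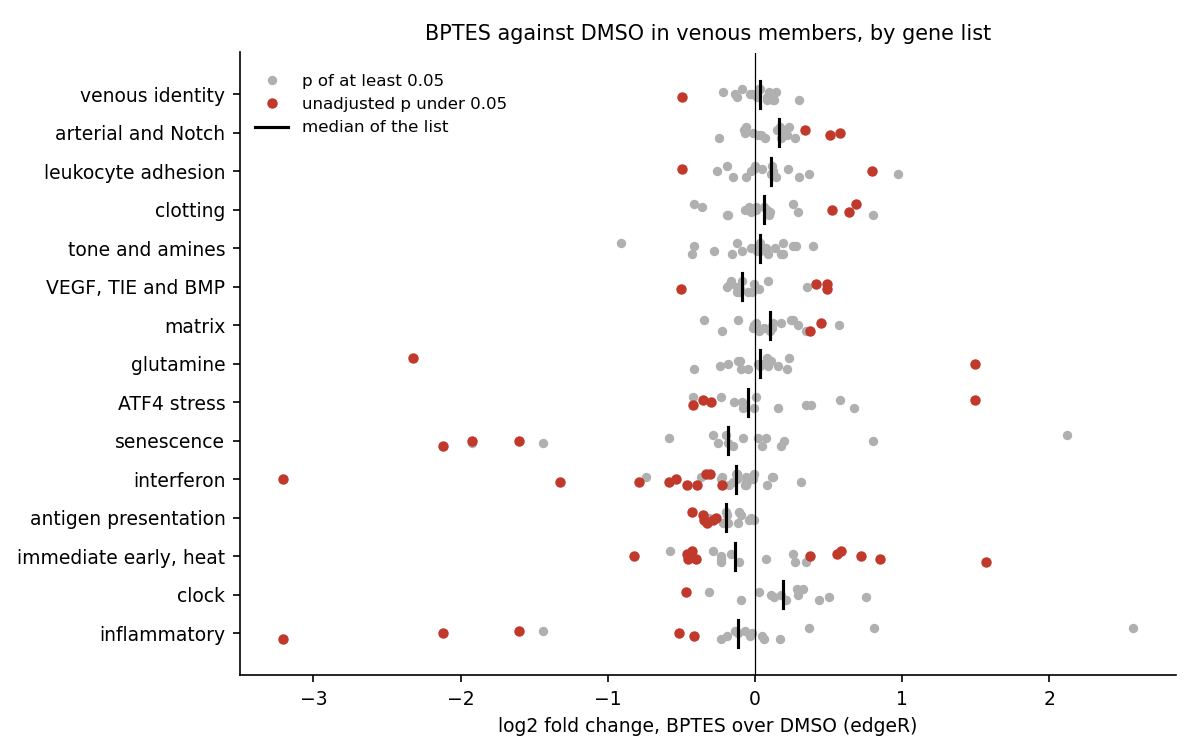
Log2 fold change of BPTES over DMSO (horizontal axis) of every tested gene of 15 lists in members, 1 point per gene, red where the unadjusted p was under 0.05, with a bar at the list's median. All 17 antigen presentation genes lie below 0 with a median of -0.20, and the median of the interferon list is -0.13.

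Of 19 clotting and granule genes, 3 were higher and none lower at an unadjusted p under 0.05, against 4.05% and 5.31% of all genes: F8 (21.6 and 22.6 against 18.3 and 10.5 CPM), F2r, the thrombin receptor (12.7 and 13.4 against 6.70 and 9.24 CPM), and Cd63, a granule membrane protein (31.1 and 23.3 against 17.8 and 19.98 CPM). Without the 4-marker barcodes, F2r and Cd63 had log2 fold changes of 0.42 and 0.32. Without barcodes with 2 markers of another lineage, Cd63 turned to -0.4462. Thbd overlapped at 988 and 1133 against 1025 and 1087 CPM. The basement membrane laminin Lama4 had 85.6 and 92.8 against 71.0 and 66.8 CPM and Sparc 167 and 222 against 119 and 165 CPM, the 2 of 21 matrix genes with an unadjusted p under 0.05, both higher. Of 14 clock genes 11 were above 0 and 6 (42.9%) were higher without overlap, against 49.7% and 21.1% of all genes, with a median of 0.19 log2. None of the 11 had an unadjusted p under 0.05; Clock, the partner of BMAL1, had 137 and 142 against 121 and 126 CPM. Cry1, a repressor of that pair, was lower with such a p, at 10.5 and 11.1 against 16.9 and 13.2 CPM, but stood at 0.0534 log2 in members without a Selp UMI. Several genes of highest level on their lists overlapped between treatments, among them Calcrl, the adrenomedullin receptor (3023 and 3992 against 3067 and 3132 CPM), Flt1, the VEGF receptor 1 (1722 and 1842 against 2010 and 1769 CPM), and Tm4sf1, a surface tetraspanin-like protein (1189 and 1269 against 1254 and 1131 CPM). Hmgb1, a chromatin protein and the senescence list's gene of highest level, did not overlap, at 426 and 436 against 378 and 386 CPM (unadjusted p = 0.104, adjusted p = 0.586, edgeR). Ccl2, a monocyte chemokine at trace level in members, had 0.55 and 0.847 against 4.35 and 2.00 CPM.

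By the rule of smallest p among genes of at least 30 CPM without overlap, 24 genes were picked, 12 per direction, none called by edgeR; Iigp1, Egr1, Egr3 and Hsph1 are given above. On the higher side were Klf10, a TGF-beta-induced Kruppel-like factor (55.4 and 59.7 against 33.2 and 28.7 CPM), Tsc22d3, the glucocorticoid-induced leucine zipper (110 and 129 against 48.0 and 72.3 CPM), Cd34 of the adhesion list (79.2 and 72.8 against 48.6 and 39.6 CPM), and St13, Chn1, Arf2, Foxn2, Scn3b, Lcorl and Rara, with log2 fold changes of 0.50 to 0.90. On the lower side were Casp4, the caspase that senses cytosolic lipopolysaccharide (219 and 222 against 330 and 323 CPM), and Gem, Bin3, Ccdc138, Garnl3, Prkcq, Cd24a, Stk4 and Nol10, with log2 fold changes of -0.77 to -0.54. DESeq2 called 12 of the 24 genes picked by this rule and gave no adjusted p to another 9. Each of the 24 kept its direction without the 4-marker barcodes.

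The treatment differences of members were set beside those of capillary barcodes in the same libraries, which share libraries and therefore any difference between them. No gene passed the test of a class by treatment term (0 of 15622, 0.0%; 891, or 5.7%, had an unadjusted p under 0.05 in edgeR, 383, or 2.45%, more positive and 508, or 3.25%, more negative in members). Iigp1 stood at 305 and 221 against 458 and 380 CPM in the capillary gate, so it was lower in the BPTES libraries there too. The difference in members was -0.10 log2 from that in the capillary gate (unadjusted p = 0.361, edgeR). Egr1 stood at 925 and 635 against 1283 and 1050 CPM in the capillary gate. Its difference between classes was -0.21 log2 (unadjusted p = 0.062, edgeR). None of the 17 antigen presentation genes and 3 of the 33 interferon genes had an unadjusted p under 0.05 for the term.

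The term was smallest in p for Ptgs2, cyclooxygenase 2. Ptgs2 stood at 141 and 86.9 CPM in BPTES and 130 and 171 CPM in DMSO members, with overlapping groups, and at 8.49 and 4.84 against 3.58 and 4.67 CPM in the capillary gate (term -1.09 log2, SE 0.0942, adjusted p = 0.0917). The Ptgs2 term ran from -1.14 to -0.26 log2 over the alternatives, with adjusted p up to 0.97 and under 0.05 in 4 of 11; it was -0.26 without barcodes with 2 markers of another lineage. Fabp4, a fatty acid carrier, stood at 70.9 and 63.9 against 48.4 and 56.4 CPM in members but at 10.4 and 18.5 against 127 and 85.4 CPM in the capillary gate (term 3.24 log2, adjusted p = 0.113). Adamts9, a secreted metalloprotease, stood at 521 and 773 against 729 and 776 CPM in members and at 758 and 1091 against 694 and 707 CPM in the capillary gate (term -0.62 log2, adjusted p = 0.113). Prkg1, the cGMP-dependent kinase, was the fourth, with a term of 0.77 log2 (adjusted p = 0.145). Of the inflammatory list 7 of 20, and of the immediate early and heat shock list 6 of 22, were more negative in members at an unadjusted p under 0.05 in edgeR. None was more positive, against 3.25% and 2.45% of all genes. Other lists leaned the other way. Of 21 genes of vascular tone and amine handling 6 were more positive and 1 more negative, and of 20 clotting and granule genes 5 and 2.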

How the data were processed

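Lung suspensions of 4 mouse libraries (2 BPTES, 2 DMSO) were profiled by droplet 3' single-cell RNA sequencing. The authors deposited filtered matrices of UMI counts for 31054 features, written by Cell Ranger 8.0.1 against mm10 per the submitters' processing notes. Member barcodes were gated as described above, from raw counts. Sums of counts per library and gate entered quasi-likelihood fits of edgeR 4.0.16 under R 4.3.3, after filterByExpr and TMM scaling, with Benjamini-Hochberg adjustment over all genes tested; class contrasts and the class by treatment term kept the library as a block. CPM were computed from TMM library sizes. Those of marker sums, of members grouped by Selp, of barcodes outside the endothelium and of Nr2f2 in the arterial gate used plain totals. DESeq2 1.42.0 was an alternative. No doublet caller was run; barcodes with markers of other lineages were left out in alternatives. The fits were tested on simulated counts. These had less spread than the BPTES against DMSO sums, and class contrasts were called there at a smaller log2 difference. They therefore do not show what share of true differences the fits find in these data. Promoters were RefSeq's. Some results on single genes that the rule below selects are not reported here.

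The members and gene lists were chosen with earlier results of these data known. Named for BPTES against DMSO were, per direction, called genes, filled to 12 with the smallest p among genes of at least 30 CPM with groups that did not overlap; the gene of highest level and up to 2 of smallest p per list; and Selp, Prss23, Nr2f2, Cdkn1a and Cdkn2a. Class contrasts named up to 12 called genes per direction of at least 50 CPM and members of 3 lists; further list genes and those of the Selp groups were picked after their values were seen. Binomial intervals cover counting error only. Same-numbered libraries are not stated to be paired.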

Additional observations from a re-analysis of the deposited data

How the results depend on the processing

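The count of genes called between BPTES and DMSO members (0) was 139 with no filter on low counts, 3 without barcodes holding 2 markers of another lineage, 41 with DESeq2 and 3 to 123 with 1 library left out, the highest without BPTES replicate 1; a lone library was then assumed to vary like the other group. The broad removal was uneven, taking 80.04% and 72.2% of BPTES members but 56.3% and 68.4% of DMSO members. With the replicate number as a block, the count was 0, the class by treatment count 0 and the share difference 0.6555; with crossed replicate numbers as a block, chosen after seeing the data because same-numbered libraries correlated at -0.219 over 9623 genes, it was 15. The class by treatment count (0) was 129 with no filter, 1 with the stricter gate, 11 and 7 without barcodes with 2 or 4 markers of another lineage, and 0 to 68 with 1 library left out, again highest without BPTES replicate 1. The venous against arterial count of 2551 became 611 and 1617 with these removals, which leave fewer barcodes. The venous against capillary count stayed between 884 and 1167. The share difference stayed above 0, from 0.0917 points after thinning to 0.12 and 1.19 with BPTES replicate 2 or 1 left out. The groups nevertheless overlapped in several settings, as given above. The cause of these changes was not tested.

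Some differences changed sign, most of them small, but also those of Cd63 and Cry1, which had an unadjusted p under 0.05 in edgeR. Without 2-marker barcodes the log2 fold change was -0.7349 for Selp, -0.4462 for Cd63 and 0.034 for Cdkn1a. Leaving out 1 library in turn gave -0.3199 (without BPTES replicate 2) to 0.4653 for Selp, -0.0956 to 0.1021 for Thbd, -0.0273 to 0.1208 for Tm4sf1, -0.0359 to 0.3653 for Calcrl and -0.1728 to 0.0103 for Flt1. Cry1 was 0.0534 in members without a Selp UMI; Thbd was -0.001 with the wider gate and -0.0502 in members with a Selp UMI. Depth limits what the genes under 10 CPM can show.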

Other observations

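The division of members by Selp also bears on Vcam1, which was lower in both BPTES libraries over all members. Among members with no Selp UMI, Vcam1 stood at 166 and 193 CPM in BPTES and 300 and 287 CPM in DMSO replicates 1 and 2. Among those with 1 to 4 UMIs it stood at 517 and 521 against 582 and 486 CPM, and among Selp-rich members at 641 and 896 against 1222 and 1234 CPM. The BPTES values were below both DMSO values in the Selp-negative and the Selp-rich members and overlapped them in between. These values come from the barcodes already described and were not tested.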
